A study of Homo sapiens with 12 samples.

Results

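The transcripts described here encode 35 enzymes of central carbon metabolism, chosen by gene symbol: 17 of glycolysis with lactate dehydrogenase, 3 of the pentose phosphate pathway, 4 of the pyruvate dehydrogenase complex and 11 of the citrate cycle with the cytosolic malate dehydrogenase. All 35 were among the 58671 gene rows of the authors' table, and 34 had at least 1 FPKM (fragments scaled to transcript length and library size) in at least 1 group. Total RNA came from the epithelial lung cancer line A549, either parental (WT) or carrying a knockout of RNase L (RLKO). RNase L is the endoribonuclease that cleaves single-stranded RNA once double-stranded RNA has been sensed. Both lines were untreated or were harvested 6 h after they were transfected with 500 ng/ml of the double-stranded RNA mimic poly(I:C). Each of the 4 groups had 3 samples, but the table gives 1 pooled value for each group; neither the spread over samples nor the depth can be read from it. The sources used here do not say whether RLKO is 1 clone.

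Glycolysis splits glucose into pyruvate in the cytosol and yields ATP and NADH, and lactate dehydrogenase turns pyruvate into lactate while restoring NAD+. The pentose phosphate pathway branches off at glucose 6-phosphate and makes NADPH and ribose. In mitochondria the pyruvate dehydrogenase complex turns pyruvate into acetyl-CoA, which the citrate cycle oxidises. Many of these steps have isozymes or several subunits encoded by separate genes, and carcinoma lines typically carry abundant glycolytic mRNAs.

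The word "fell" or "rose" is used only for a gene with a q-value under 0.05 in the authors' deposited table, which tests poly(I:C) against untreated cells within a genotype. All log2 changes are on the spike-in scale, that is, each group's FPKM was divided by a factor from the ERCC RNAs added to every sample, and 1 was added before the logarithm. The factor was 1.53 times higher after poly(I:C) in WT and 1.13 times higher in RLKO, so log2 changes lie below those in FPKM as deposited, by up to 0.61 in WT and 0.18 in RLKO. The authors' p-values and q-values appear to go with FPKM as deposited, without this scaling. ENO2, at 12.99 and 12.6 FPKM in untreated and treated WT, had an unadjusted p of 0.955 in their table but a spike-in log2 change of -0.62. A call and the log2 change beside it are therefore on different scales. In bulk RNA, fewer cells and less RNA per cell cannot be told apart. Changes are therefore read against the median of 12181 protein-coding rows, which was -0.70 in WT and -0.24 in RLKO. Of 5 epithelial markers the keratins KRT8 and KRT18 stood at 256 FPKM or more in every group, KRT19 at 6.64 to 54.0 FPKM, CDH1 at 2.93 to 4.52 FPKM and EPCAM at 0.558 to 1.03 FPKM; none of the leukocyte and endothelial markers reached 1 FPKM (summed level 0.518 to 0.896 and 0.0228 to 0.401 FPKM over the groups), and of the 3 fibroblast markers COL1A1 reached 7.17 FPKM while COL1A2 was at 0.

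In WT cells 3 of the 34 measurable transcripts fell, MDH1, PDHB and SUCLG1, and none rose, where 3.09% of all protein-coding rows fell and 4.27% rose. Another 9 had an unadjusted p under 0.05 in the authors' deposited table, 12 in all, against 21.2% of protein-coding rows. The size of the differences was broad: 28 of 34 had a log2 change of -1 or lower, against 37.0% of protein-coding rows, and the median was -1.66. A change below 0 was seen for 32, all but PFKL and ALDOC, against 78.4%. In RLKO cells none was called, and 1, PDHB, had an unadjusted p under 0.05 in the authors' deposited table, against 4.06% of protein-coding rows. Of those rows, 0.0246% fell and 0.821% rose in RLKO. There the median was -0.43, and 5 of 34 had a change of -1 or lower, against 5.34% of protein-coding rows. These 5 were LDHB, MDH1, PDHB, DLD and SUCLA2. The RLKO change was below 0 for 32, against 80.1%, but for 26 in FPKM as deposited, where HK1, PFKP, PKM, TKT, CS and MDH2 lay above 0.

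Most abundant protein-coding transcripts had lower levels after poly(I:C) in WT, and 20 of these 34 enzymes are abundant. Of 1218 nuclear protein-coding rows at 100 FPKM or more in untreated RLKO, 89.5% had a WT log2 change of -1 or lower and 98.7% one below 0. All 20 of the carbon metabolism transcripts at that level were at -1 or lower. Of these 20, 2 fell in WT, against 14.2% of the abundant rows (0.164% rose), and 9 had an unadjusted p under 0.05, against 49.1%. In RLKO 3 of the 20 had a change of -1 or lower, against 29.6%, all 20 lay below 0, against 95.1%, and none had an unadjusted p under 0.05 in the authors' deposited table, against 6.98%. Set against genes in the same range of level, 22 of the 34 lay above the median WT change of their range and 12 below it, with a median distance of 0.15 on the log2 scale. In RLKO 18 lay above and 16 below. Of the 20 abundant enzymes, 5 lay below the median of their range in WT and 7 in RLKO, and their median distances were 0.34 and 0.33. By step the median WT distance ran from -0.79 for the pyruvate dehydrogenase complex to 0.68 for the pentose phosphate transcripts. As a list the enzymes thus sat near or somewhat above transcripts of like abundance, and the members differed widely among themselves.

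**Figure D1:**
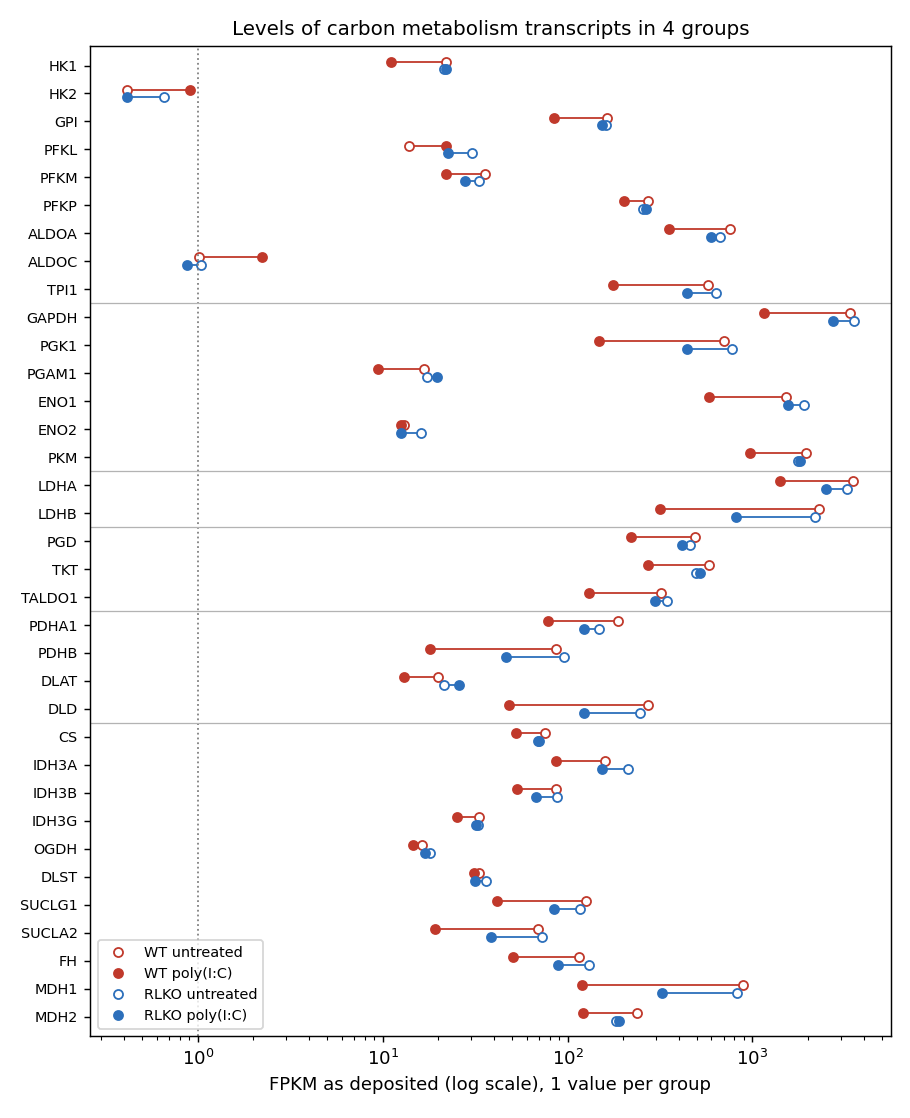
FPKM as deposited (horizontal log axis) for the 35 transcripts (vertical axis), ordered by step, with lines from untreated (open) to poly(I:C) (filled) in WT (red) and RLKO (blue); circles are group values from the authors and the dotted line marks 1 FPKM. GAPDH stood at 3385 and LDHA at 3482 FPKM in untreated WT and HK2 below 1 FPKM in all groups, and the red lines of MDH1 and LDHB are among the longest.

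Isozymes of the same reaction differed in their change, so the opening 120 coding bases of the lactate and malate dehydrogenase pairs are printed here from GENCODE v29 (GRCh38), 5′ to 3′. RNase L is known to cleave mainly at UA and UU dinucleotides, which the file writes as TA and TT; these are in capitals, counted on the sense strand only, with overlapping pairs each counted. The pairs were chosen after their values were seen.
LDHA: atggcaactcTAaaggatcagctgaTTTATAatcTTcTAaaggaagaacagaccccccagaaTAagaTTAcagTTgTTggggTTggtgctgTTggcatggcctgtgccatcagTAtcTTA
LDHB: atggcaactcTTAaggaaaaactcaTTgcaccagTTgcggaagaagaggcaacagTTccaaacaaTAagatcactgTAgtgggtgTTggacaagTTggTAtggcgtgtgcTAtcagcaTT
MDH1: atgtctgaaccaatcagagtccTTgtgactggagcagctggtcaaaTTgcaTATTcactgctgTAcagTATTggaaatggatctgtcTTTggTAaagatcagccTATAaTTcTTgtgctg
MDH2: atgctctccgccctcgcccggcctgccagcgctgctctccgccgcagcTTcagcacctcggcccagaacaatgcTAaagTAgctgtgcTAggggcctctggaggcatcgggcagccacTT
The stretches lie on the plus strand at chr11:18396843-18396962 for LDHA and the minus strand at chr12:21654552-21654671 for LDHB. Those of MDH1 (chr2:63589044-63595440) and MDH2 (chr7:76048161-76054883), both on the plus strand, span introns. The stretch of LDHA holds 17 such dinucleotides and that of LDHB 12, and MDH1 has 14 where MDH2 has 5.

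MDH1 encodes the cytosolic malate dehydrogenase of the malate-aspartate shuttle (chromosome 2, 63588609 to 63607197). It had 889 FPKM in untreated WT, 120 FPKM in treated WT, 821 FPKM in untreated RLKO and 324 FPKM in treated RLKO. In WT it fell by 3.49 on the log2 scale (q = 0.00546 in the authors' deposited table), which left 8.82% of its untreated level relative to the spike-ins. In RLKO its log2 change was -1.52 and 34.9% was left. MDH2, the mitochondrial enzyme of the citrate cycle (chromosome 7, 76048051 to 76067508), had 236 and 121 FPKM in WT and 184 and 190 FPKM in RLKO, untreated before treated. Its log2 changes were -1.57 and -0.13, neither called. MDH1 therefore made up 79.0% of the summed malate dehydrogenase FPKM in untreated WT and 49.7% after treatment, and 81.7% and 63.0% in RLKO. Such a share is taken within 1 group and does not depend on the scaling.

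Lactate dehydrogenase showed the same kind of split. LDHA, which encodes the M subunit typical of glycolytic tissue (chromosome 11, 18394388 to 18408425), had 3482 and 1410 FPKM in WT and 3235 and 2501 FPKM in RLKO, for log2 changes of -1.92 and -0.55. LDHB, the H subunit typical of heart (chromosome 12, 21635342 to 21757857), had 2307 and 316.5 FPKM in WT and 2174 and 820 FPKM in RLKO. Its log2 changes of -3.47 and -1.58 ranked next to MDH1 in WT, the lowest of the 34 there, and lowest in RLKO. Even so, LDHB did not pass in WT (q = 0.381 in the authors' deposited table). LDHB made up 39.8% of the pair in untreated WT and 18.3% after poly(I:C), against 40.2% and 24.7% in RLKO. The shift towards LDHA was thus seen in both lines, and whether its size differed between them could not be tested with 1 value per group.

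Of the 4 listed subunits of the pyruvate dehydrogenase complex 1 fell in WT. PDHB, the beta subunit of the E1 component that decarboxylates pyruvate (chromosome 3, 58427630 to 58433857), had 86.9 FPKM in untreated and 18.0 FPKM in treated WT. It fell by 2.80 on the log2 scale (q = 0.0214 in the authors' deposited table). In RLKO it had 96.3 and 46.5 FPKM, a log2 change of -1.21 with an unadjusted p of 0.02725 and a q of 1.00 in the authors' deposited table. PDHA1, the alpha subunit that pairs with it, had 187 and 78.9 FPKM in WT and 149 and 123 FPKM in RLKO. The PDHA1 to PDHB ratio went from 2.15 to 4.37 in WT and from 1.54 to 2.64 in RLKO, with no test.

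The other components of the complex diverged as well. DLD, the E3 dihydrolipoamide dehydrogenase that the complex shares with the oxoglutarate dehydrogenase complex, had 274 and 48.0 FPKM in WT and 247 and 123 FPKM in RLKO. Its log2 changes were -3.09 and -1.18, and it was not called in WT (q = 0.212 in the authors' deposited table). DLAT, the E2 acetyltransferase, stood at 19.97 and 12.99 FPKM in WT and at 21.6 and 26.0 FPKM in RLKO, so its log2 change was -1.16 in WT and 0.09 in RLKO. DLAT and PGAM1 were the transcripts above 0 in RLKO. PDHX, the E3-binding subunit, which is not on the list of 35, stood at 37.7 and 26.1 FPKM in WT and at 37.4 and 38.6 FPKM in RLKO, without a call. The DLD to DLAT ratio went from 13.7 to 3.70 in WT and from 11.5 to 4.71 in RLKO.

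Among the 11 transcripts of the citrate cycle and malate dehydrogenases, MDH1 and SUCLG1 fell in WT and all 11 had a log2 change below 0 in both lines, except that CS and MDH2 lay above 0 in RLKO in FPKM as deposited. The medians were -1.48 in WT and -0.54 in RLKO. SUCLG1, the alpha subunit of succinyl-CoA ligase (chromosome 2, 84423523 to 84460045), had 126 and 41.7 FPKM in WT and 117 and 84.8 FPKM in RLKO. In WT it fell by 2.17 on the log2 scale (q = 0.0434 in the authors' deposited table), and its RLKO change was -0.64. SUCLA2, the ATP-forming beta subunit that binds it, had 69.1 and 19.2 FPKM in WT and 73.0 and 38.5 FPKM in RLKO (log2 -2.39 and -1.08). SUCLA2 missed the threshold in WT (q = 0.0777 in the authors' deposited table).

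FH, fumarate hydratase, had 116 and 50.6 FPKM in WT and 131 and 89.1 FPKM in RLKO, log2 changes of -1.78 and -0.73. CS, the citrate synthase that opens the cycle, had 75.2 and 52.4 FPKM in WT and 69.1 and 69.9 FPKM in RLKO. The catalytic IDH3A and the partner subunits IDH3B and IDH3G of the NAD-dependent isocitrate dehydrogenase had WT log2 changes of -1.48, -1.30 and -0.98. Their shares of the summed FPKM stayed within 5 percentage points of the untreated ones in each line, with IDH3A at 57.1% and 52.6% in WT.

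The 2-oxoglutarate dehydrogenase subunits lay nearest to 0 among these 11 in WT. OGDH, its E1 component, stood at 16.4 and 14.6 FPKM in WT and 18.1 and 16.95 FPKM in RLKO. DLST, its E2 component, stood at 33.3 and 31.1 FPKM in WT and 36.3 and 31.6 FPKM in RLKO. The WT log2 changes of -0.74 and -0.69 were close to the median of all protein-coding rows, whereas DLD, the E3 component that both 2-oxoacid complexes use, lay far below it. DLD was more abundant, at 274 FPKM in untreated WT, and the median WT change in its range of level was -1.90. Set against their own ranges of level, the WT distances were 0.04 for OGDH, 0.56 for DLST and -1.19 for DLD.

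None of the 9 upper glycolysis transcripts was called in either line, and 2 of the 8 measurable ones had an unadjusted p under 0.05 in WT. HK1, the hexokinase that commits glucose to the cell, had 22.1 and 11.1 FPKM in WT and 21.4 and 21.9 FPKM in RLKO. HK2, its inducible isozyme, lay between 0.413 and 0.912 FPKM in all groups and is left out of the counts of measurable transcripts. GPI, which turns glucose 6-phosphate into fructose 6-phosphate, had 164 and 84.7 FPKM in WT and 162 and 154 FPKM in RLKO. TPI1, triosephosphate isomerase, had 577 and 175 FPKM in WT and 633 and 443 FPKM in RLKO (log2 -2.32 and -0.69, WT q = 0.0854 in the authors' deposited table).

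Phosphofructokinase, the committed step of glycolysis, has a liver, a muscle and a platelet form, and their transcripts differed in the size of their change. PFKP was the most abundant, at 273 and 201 FPKM in WT and 257 and 264 FPKM in RLKO. PFKM had 35.7 and 21.9 FPKM in WT and 33.1 and 27.9 FPKM in RLKO. Of the 3, PFKL was the one that had a higher FPKM after poly(I:C) in WT, 13.8 untreated and 21.9 treated, while in RLKO it had 30.6 and 22.7 FPKM. Its log2 changes were 0.05 in WT and -0.59 in RLKO, neither called (WT q = 0.642 in the authors' deposited table). The untreated lines already differed for PFKL, by -0.82 on the log2 scale for WT against RLKO, and no test of that difference exists. PFKL made up 4.28% of phosphofructokinase FPKM in untreated WT and 8.94% in treated WT, against 9.56% and 7.19% in RLKO.

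ALDOA and ENO1 were the most abundant of the measured aldolase and enolase transcripts. ALDOA, the main aldolase, had 758 and 352 FPKM in WT and 669 and 597 FPKM in RLKO. ALDOC, the brain form, had 1.02 and 2.22 FPKM in WT and 1.04 and 0.877 FPKM in RLKO, close to the limit of what was counted as measurable. ENO1 had 1512 and 579 FPKM in WT and 1898 and 1550 FPKM in RLKO, for log2 changes of -1.996 and -0.47. ENO2, the neuronal enolase, had 12.99 and 12.6 FPKM in WT and 16.2 and 12.6 FPKM in RLKO. ENO3, the muscle enolase, which is not on the list of 35, had 38.9 and 51.5 FPKM in WT and 44.9 and 38.5 FPKM in RLKO, more than ENO2 in every group.

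None of the 6 lower glycolysis transcripts was called, and their levels spanned a wide range. GAPDH, glyceraldehyde 3-phosphate dehydrogenase and a common reference transcript, had 3385 and 1160 FPKM in WT and 3552 and 2736.5 FPKM in RLKO, log2 changes of -2.16 in WT and -0.55 in RLKO. PGK1, phosphoglycerate kinase, had 703 and 148 FPKM in WT and 772 and 445 FPKM in RLKO, with changes of -2.85 and -0.97. The 2 enzymes work in sequence, and the GAPDH to PGK1 ratio was 4.82 and 7.81 in WT and 4.603 and 6.15 in RLKO. PKM, pyruvate kinase, had 1947 and 972 FPKM in WT and 1766 and 1807 FPKM in RLKO. PGAM1, phosphoglycerate mutase, had 16.8 and 9.45 FPKM in WT and 17.3 and 19.7 FPKM in RLKO, far below its neighbours in the pathway.

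The 3 pentose phosphate transcripts had similar changes, and none was called. PGD, 6-phosphogluconate dehydrogenase, had 489 and 221 FPKM in WT and 462 and 418 FPKM in RLKO. TKT, transketolase, had 583 and 272 FPKM in WT and 497 and 523 FPKM in RLKO. TALDO1, transaldolase, had 319 and 131 FPKM in WT and 347 and 299 FPKM in RLKO. Their WT log2 changes lay between -1.89 and -1.71 and all 3 were above -2.43, the median of protein-coding rows in their range of level. In RLKO the changes lay between -0.39 and -0.10, with TKT above 0 in FPKM as deposited.

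**Figure D2:**
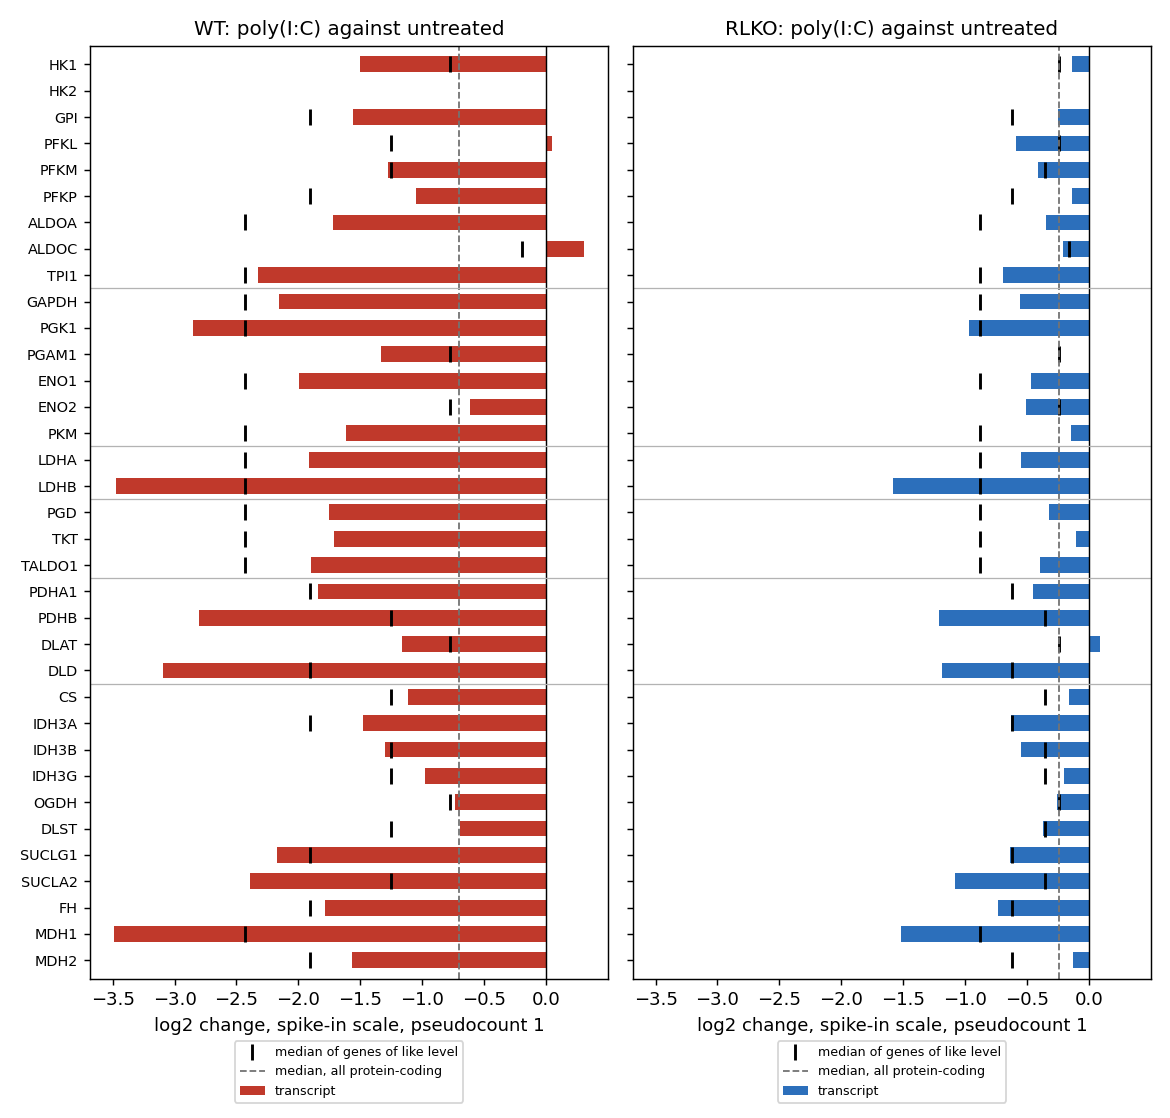
Change after poly(I:C) in log2 units (horizontal axis, spike-in scale, pseudocount 1) for each transcript in WT (red bars) and RLKO (blue bars); black ticks are medians of nuclear protein-coding genes in the same range of untreated FPKM in the other line, the dashed line is the median of all protein-coding rows, and HK2 is left out. LDHB, MDH1, PDHB, DLD and SUCLA2 reach past their ticks by more than 1 in WT, and PFKL stands at 0.05.

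The design sets WT against RLKO to ask which differences go with RNase L, and no comparison between the lines carries a test. The log2 change was lower in WT than in RLKO for 32 of 34 transcripts, with PFKL and ALDOC as the others. This was so for 73.3% of protein-coding rows and for 1188 of the 1218 abundant ones. For 23 the gap was 1 or more, against 24.1% of all protein-coding rows and 73.3% of the abundant ones. The median gap was -1.37, and the widest was that of MDH1 at -1.97. Before treatment no transcript differed between the lines by 2-fold or more on the spike-in scale with 1 added, where 1.58% of protein-coding rows did. FPKM as deposited differed by more than 2-fold for PFKL, at 13.8 in WT and 30.6 in RLKO. On the spike-in scale 30 of 34 were higher in WT, against 78.2% of protein-coding rows. That count rests on the spike-in scale: in FPKM as deposited 17 of 34 were higher in WT, against 48.2%. After treatment 33 of 34 were lower in WT, against 64.3%, and 17 of them by 2-fold or more, against 11.3%. Of the 1218 abundant rows, 1165 were lower in treated WT, 607 of them by 2-fold or more. Of the 20 abundant enzymes, 20 were lower and 12 by 2-fold or more. The order of the changes was similar in both lines (Pearson r = 0.74, Spearman rho = 0.65 over the 34 transcripts, which share the same libraries).

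**Figure D3:**
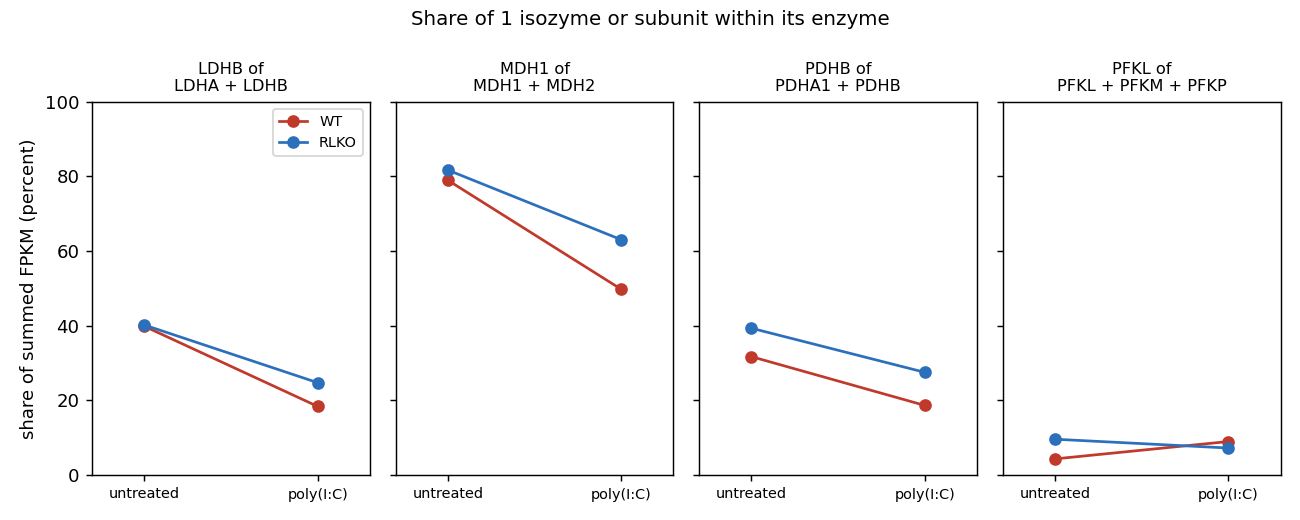
Share of summed FPKM (vertical axis, percent) held by 1 isozyme or subunit in untreated and poly(I:C) cells of WT (red) and RLKO (blue); points are computed from the authors' group values and have no error. LDHB went from 39.8% to 18.3% in WT and from 40.2% to 24.7% in RLKO, while PFKL moved in opposite directions in the 2 lines.

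The transcripts that were lowest after poly(I:C) tended to have a low GC content in their coding sequence. Over the 34 transcripts the WT change correlated with coding GC content at Pearson r = 0.64 and Spearman rho = 0.56, and the RLKO change at 0.67 and 0.61. These are descriptions over genes that share libraries, and over all 12093 protein-coding rows with a coding sequence the Pearson coefficients were 0.18 and 0.13. The 10 transcripts with a coding GC content under 50% had a median log2 change of -2.28 in WT and -0.91 in RLKO, and the other 24 had -1.53 and -0.33. All 5 transcripts with an RLKO change of -1 or lower belonged to those 10. DLD had the lowest coding GC content, at 41.5%, and PFKL the highest, at 62.3%. The choice of coding GC was made after seeing the data; the GC content in the authors' table gave 0.55 in WT and 0.48 in RLKO.

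UA and UU dinucleotides were described in the same way. UA and UU hold no G or C, so this measure is not independent of GC content. Their density in the coding sequence ranged from 3.72 per 100 bases in PFKL to 13.9 in DLD, with a median of 6.60 against 7.92 over protein-coding rows. It correlated with the change at r = -0.51 in WT and -0.54 in RLKO, where all protein-coding rows gave -0.17 and -0.12. With the WT change minus the RLKO change, r was -0.35 over the members. It was -0.14 over members at 100 FPKM or more, and -0.010 over all protein-coding rows at that level. Whether RNase L cleavage has a part in these coefficients was not tested. The isozyme pairs printed above did not follow it evenly. MDH1 had 9.38 per 100 coding bases and MDH2 5.42, whereas LDHB, the lower of its pair after treatment, had 10.7 and LDHA 12.1.

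Level and stability also varied with the change. The WT change correlated with the log2 untreated level in RLKO at r = -0.68, close to the -0.63 over all protein-coding rows. The RLKO change correlated with the log2 untreated level in WT at -0.35, against -0.39 over those rows. Among the 20 members at 100 FPKM or more, coding GC content correlated with the change at 0.64 in WT and 0.78 in RLKO. Over all protein-coding rows at that level the coefficients were 0.11 and 0.32. The mRNA half-life that the authors copied from another study, without a unit in the header, was at its top value of 24 for 15 of the 31 transcripts with an entry, or 48.4%, against 7.13% of protein-coding rows and 27.5% of those at 100 FPKM or more. Its correlation with the change was -0.40 in WT and -0.11 in RLKO, against -0.44 and -0.21 over all protein-coding rows with an entry. Transcript length gave 0.15 and 0.12, and coding length 0.39 and 0.32. Over all protein-coding rows at 100 FPKM or more, transcript length gave 0.38 and 0.21, and coding length 0.44 and 0.28.

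**Figure D4:**
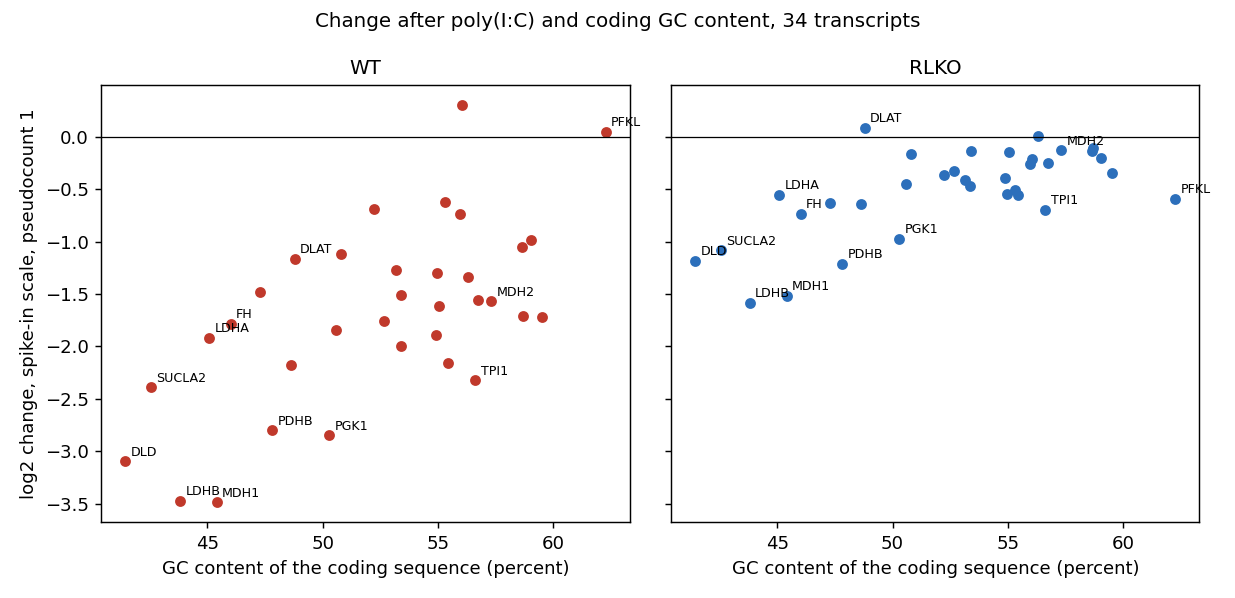
Change in log2 units after treatment (vertical axis, spike-in scale, pseudocount 1) against GC content of the coding sequence (horizontal axis, percent) for 34 transcripts in WT (red) and RLKO (blue), each point 1 transcript. LDHB, MDH1 and DLD lie at the lower left in both panels, and LDHA lies above them at a GC content close to that of MDH1.

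Several of these genes have processed pseudogenes, copies whose reads can be confused with those of the parent. Of 108 pseudogene rows named for a member, 36 had at least 1 FPKM in a group, and 11 of these fell in WT although the parent gene of each was not called; of all 3641 measurable pseudogene rows 9.72% fell and 3.19% rose. They were named for TPI1, GAPDH, LDHA, LDHB and PKM. Another 3 rose, all under 1 FPKM in untreated WT. TPI1P2 went from 0.639 to 2.58 FPKM, and GAPDHP45 and PGAM1P1, listed at 0 untreated, had 1.31 and 1.16 FPKM after treatment. All 3 reached 1 FPKM only in treated WT, so they were kept only through the group where they were high. TPI1P1 stood at 523 and 149 FPKM in WT, near the 577 and 175 FPKM of TPI1, and passed (q = 0.0121 in the authors' deposited table) where TPI1 did not. LDHBP2 fell from 150 to 20.2 FPKM in WT (q = 0.00546 in the authors' deposited table), with a log2 change of -3.43 beside -3.47 for LDHB. Of the 19 rows at 10 FPKM or more in untreated WT, all had a WT change below 0, with a median distance of 0.21 from the parent's change. At lower levels 11 rows had a WT change above 0. Most of these 11 reached 1 FPKM only in treated WT, so their direction largely followed from the filter. The sources used here do not say how the authors assigned reads that match several copies, so the levels of these parents are uncertain.

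Overlapping genes are a further uncertainty. The sources used here do not say whether the libraries kept the strand, and some overlaps lie on the same strand, where it would not help. Exons of 17 of the 35 genes overlapped exons of another measurable gene in GENCODE v29. GAPDH shares bases with the antisense row AC006064.4, listed at 1448 and 672 FPKM in WT. IDH3G, at 33.3 FPKM in untreated WT, overlaps SSR4 at 341 FPKM, and DLD, at 274 FPKM, overlaps LAMB1 at 124 FPKM. On the same strand, CS, at 75.2 FPKM in untreated WT, overlaps the protein-coding row AC073896.1. That row was listed at 52.9 FPKM in untreated and 12.5 FPKM in treated WT. ALDOA, GPI, PGK1 and PFKP also had same-strand overlaps, with rows at lower levels.

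The other enzymes of these pathways had 20 measurable genes of 34 listed, and 2 fell in WT. Of protein-coding rows 3.09% fell, and of those at 100 FPKM or more in untreated RLKO, where both lie, 14.2%. IDH1, the cytosolic NADP-dependent isocitrate dehydrogenase, had 170 FPKM untreated and 33.2 FPKM treated and fell by 2.92 on the log2 scale (q = 0.0161, authors' deposited table). SDHB, the iron-sulfur subunit of succinate dehydrogenase, went from 276 to 47.4 FPKM, a log2 change of -3.12 (q = 0.0274, authors' deposited table). In RLKO they stood at 166 and 80.5 FPKM and at 229 and 124 FPKM, and none of the 20 was called there. The median of the 20 was -1.38 in WT and -0.30 in RLKO. ACO1, the cytosolic aconitase that doubles as an iron-regulatory protein, was the only one of the 20 above 0 in either line, at 0.18 in WT and 0.32 in RLKO, and was not called; it was picked out after its values were seen.

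Of 19 regulators of the pathways, 16 were measurable, 1 rose in WT and none fell, where 4.27% of protein-coding rows rose and 3.09% fell. PFKFB4, which makes and breaks down fructose 2,6-bisphosphate, rose from 5.82 to 23.1 FPKM in WT (log2 1.26, q = 0.00319 in the authors' deposited table) and stood at 6.49 and 4.55 FPKM in RLKO, without a call. The median of the 16 was -0.28 in WT and -0.14 in RLKO. HIF1A, a transcription factor of glycolytic genes, had 131 and 142 FPKM in WT and 152 and 184 FPKM in RLKO. MYC, another such factor, had 87.9 and 270 FPKM in WT (q = 0.0609 in the authors' deposited table) and 72.0 and 107 FPKM in RLKO. Of 24 transporters and linked carbon enzymes, 19 were measurable and none was called in WT or RLKO by the authors' Cuffdiff test. In that test 4 and 0 of the 19 had an unadjusted p under 0.05, against 21.2% and 4.06% of protein-coding rows. Their medians were -1.40 in WT and -0.25 in RLKO. ACLY, which makes cytosolic acetyl-CoA, had 224 and 130 FPKM in WT, and GOT2, the mitochondrial aspartate aminotransferase of the malate-aspartate shuttle, had 78.2 and 43.7 FPKM.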

How the data were processed

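Total RNA of 12 samples, 3 in each of 4 groups, was sequenced after rRNA depletion, with ERCC spike-ins added before it, per the series' design text. FastQC, Trimmomatic 0.32, TopHat2 2.0.6, Bowtie2 2.0.2, Cuffdiff 2.2.1 and GRCh38.p12 appear, without settings, per the submitters' processing notes. Per the file headers, the authors gave 1 FPKM value per group and the p-value and q-value of their test within each genotype; GC content in percent, lengths and a half-life were also deposited. Depth is unknown. No column held a single sample, so the planned fits across samples were replaced by the authors' q-values, and no p-value here was computed from samples.

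Gene classes and coordinates came from GENCODE v29 (GRCh38), which held all 58671 gene identifiers. The 86 HIDATA rows were left out, and rows with at least 1 FPKM in a group were kept (22087, of which 12181 were protein-coding). Each group was divided by its ERCC factor, the median ratio to the geometric mean over the 49 ERCC rows averaging 1 FPKM or more and above 0 in every group. Log2 changes were taken after adding 1 (the pseudocount), so changes of low genes come out too small. Level ranges used the untreated group of the other line. Coding sequences were taken from 1 principal transcript per gene. The members and lists were chosen with earlier results of these data known. All members are described; of the other lists, genes past the threshold are named, and the 2 most abundant in untreated WT where fewer than 2 passed; ACO1, ENO3, PDHX and the pseudogene rows were added after their values were seen. Direction of a call is that on the spike-in scale. Scripts (Python 3.11.15) were tested on simulated data. The level of the targeted gene is not reported here.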

Additional observations from a re-analysis of the deposited data

How the results depend on the processing

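No paired analysis was possible because the table holds 1 pooled value per group, and leaving out a replicate was not run for the same reason. Scaling moved the values most. In FPKM as deposited the median change of the 34 transcripts was -1.05 in WT and -0.25 in RLKO, beside -0.17 and -0.10 over all protein-coding rows. On that scale the median gap between the lines was -0.94, the untreated difference 0.0073 and the treated difference -0.87. Over all protein-coding rows these were -0.095, -0.010 and -0.13. There 17 of the 34 were higher in untreated WT, against 30 on the spike-in scale, a count added after seeing the data. Also 18 transcripts had a WT change of -1 or lower, against 17.5% of protein-coding rows, and 13 a gap of 1 or more, against 10.5%. With median-ratio scaling over gene rows the medians were -1.11 in WT and -0.067 in RLKO, the gap -1.19 and the untreated difference 0.10. Over all protein-coding rows that scaling gave -0.23, 0.060, -0.31 and 0.065. Under it 2 transcripts had an RLKO change of -1 or lower, against 1.03% of those rows. A further count, added after seeing the data, put 21 of the 34 below 0 in RLKO, and the share over all protein-coding rows was not computed. The sign of no WT change turned under either scaling, and 6 and 11 RLKO changes turned. At an authors' q under 0.10, 5 transcripts were called in WT, and the share over all protein-coding rows was not computed. At the authors' unadjusted p under 0.05, 12 passed in WT and 1 in RLKO, against 21.2% and 4.06% of those rows. Other ERCC rows and a pseudocount of 0.1 moved none of these 5 medians by over 0.1, nor did the authors' normalised fold move the WT and RLKO medians, the ones run with it.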
